A study of Homo sapiens with 6 samples.

Results

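The 14-3-3 family is encoded by 7 human genes, YWHAB, YWHAE, YWHAG, YWHAH, YWHAQ, YWHAZ and SFN, which stand for the beta, epsilon, gamma, eta, theta, zeta and sigma proteins. Its members were taken from the symbol column of the deposited transcript table, where these symbols held 54 of 151453 transcripts with a gene and 7 of 40173 genes. The cells were HCT116, a human colorectal cancer line, at passage 15 to 20. The MOCK group was labelled wild type and had received a control lentivirus, and the CYGB group had received a lentivirus with the FLAG-tagged coding region of CYGB (cytoglobin, a heme protein of the globin family). Both groups were selected with puromycin as stable lines, and 3 libraries of total RNA were sequenced for each, described by the submitters as biological replicates. The comparison asks which transcripts differ in amount between MOCK and CYGB-overexpressing cells.

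14-3-3 proteins are small acidic adaptors that work as dimers and bind other proteins at phosphorylated serine or threonine. Binding hides signals, holds a client in the cytoplasm or changes its shape, and clients include RAF kinases, the death promoter BAD, CDC25 phosphatases, FOXO factors and YAP1, which is kept in the cytoplasm once the Hippo kinases have phosphorylated it. Most members are expressed in nearly all tissues and form mixed dimers, whereas SFN is a largely epithelial member that prefers to pair with itself and is induced by p53 after DNA damage.

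Libraries held 47193496 to 53531777 counts assigned to a gene. CYGB itself had 0.467 ± 0.231 CPM (the share of a library's counts in parts of 1e6, scaled by edgeR) in MOCK and 617 ± 73.4 CPM in CYGB (SD, n = 3 each), so all 6 libraries matched their labels. Of the epithelial markers, EPCAM, KRT8, KRT18, KRT19, CDH1 and CDX2 were present in every library and VIL1 stayed under 1 CPM, with a summed level of 4127 to 4602 CPM. Markers of fibroblasts summed to 45.6 to 55.2 CPM, almost all of it COL1A1, those of leukocytes to 10.3 to 26.2 CPM, almost all of it CD68, and those of endothelium to 0.551 to 1.96 CPM.

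Splice junctions that tell apart the main transcripts of YWHAH and YWHAE are shown, because the counts of these genes were divided among them. Each run has 15 bases before the junction in lower case and 15 bases after it in capitals, 5′ to 3′ on the strand of the gene, from the GENCODE 29 transcripts on GRCh38.
YWHAH-201, exon 1 (chr22:31944461-31944820) to exon 2 (chr22:31956139-31957603): tccgctatgaaggcgGTGACAGAGCTGAAT
YWHAH-205, exon 1 (chr22:31944966-31945235) to exon 2 (chr22:31956139-31957603): ataaagaatcacctaGTGACAGAGCTGAAT
YWHAH-202, exon 1 (chr22:31944522-31944820) to exon 2 (chr22:31950308-31950422): tccgctatgaaggcgGTTGCTGGTAAAATT
YWHAE-201, exon 1 (chr17:1400047-1400378) to exon 2 (chr17:1364859-1365058): ctgagcgatacgacgAAATGGTGGAGTCAA
YWHAE-208, exon 1 (chr17:1400047-1400220) to exon 2 (chr17:1369709-1369741): ctgagcgatacgacgTGCTCTGGAACTGAA
YWHAE-208, exon 2 (chr17:1369709-1369741) to exon 3 (chr17:1364859-1365058): gcagtatcttccaagAAATGGTGGAGTCAA
The capitals of YWHAH-201 and YWHAH-205 are the same, because both join to the same last exon from a different first exon. The lower case of YWHAH-201 and YWHAH-202 is the same, because both leave the same donor. YWHAE-208 leaves the donor of YWHAE-201 but inserts an exon of 33 bases before the shared next exon.

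The family as a whole took a similar part of the counts in both groups. Its 7 genes held 219581, 262336 and 254870 counts in MOCK 1 to 3 and 243449, 252284 and 253068 counts in CYGB 1 to 3, which is 0.465 to 0.501% of the counts of a library. The summed level was 4855 ± 179 CPM in MOCK cells and 4867 ± 84.3 CPM in CYGB (SD, n = 3 each). The difference was 0.00 on the log2 scale (p = 0.9, exact two-sided permutation test, in which 3 against 3 cannot go below 0.1), and the groups overlapped. In bulk RNA, fewer cells with a transcript and less of it per cell cannot be told apart, here and in all results that follow.

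Levels per transcript length (TPM, the same share after division by transcript length, summed over each gene's transcripts) set the members in order. YWHAZ was highest with 1775 ± 323 TPM over the 6 libraries (SD) and 35.4 to 44.2% of the family's TPM. It was followed by YWHAE (711 ± 95.2), SFN (695 ± 63.3), YWHAQ (626 ± 26.6), YWHAG (274 ± 7.88), YWHAH (208 ± 77.3) and YWHAB (111 ± 35.7). The ranges of YWHAE and SFN overlapped, as did those of SFN and YWHAQ, of YWHAG and YWHAH and of YWHAH and YWHAB. These ranges pool both groups. In CYGB alone YWHAH (244 to 288 TPM) stood clear of YWHAB (66.1 to 103 TPM), and in MOCK alone they overlapped. YWHAZ stood clear of YWHAE, and YWHAQ stood clear of YWHAG. By mean TPM, YWHAZ ranked 69 among all genes and YWHAB, the lowest member, ranked 1388.

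The threshold of the study's methods was used for calls, a p of at most 0.01 with a ratio of at least 2 or at most 0.5, beside an adjusted p under 0.05 (edgeR quasi-likelihood test, Benjamini-Hochberg over all genes). At the gene level 0 of the 7 members passed either rule, against 0.565% of the 19987 genes tested for the threshold and 0.0550% for the adjusted p. DESeq2 also gave 0 members with an adjusted p under 0.05, where it called 0.540% of genes. At an unadjusted p under 0.05 there were 2 members, YWHAH and YWHAB, against 4.54% of genes. The same 2 members were those whose MOCK and CYGB libraries did not overlap, which held for 11.0% of genes.

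YWHAH, the eta protein (ENSG00000128245, chr22:31944461-31957603, plus strand), had 101, 106 and 203 CPM in MOCK 1 to 3 and 253, 229 and 231 CPM in CYGB 1 to 3. All CYGB libraries were above all MOCK libraries, and MOCK 3 lay far nearer to the CYGB libraries than to the other MOCK libraries. The means were 137 ± 57.3 and 238 ± 13.2 CPM (SD, n = 3 each). The log2 fold change was 0.80 (SE 0.28), with an adjusted p of 0.963 by edgeR and of 0.532 by DESeq2. Without MOCK 3 it was 1.20 and passed the threshold, with an adjusted p of 0.0593 by edgeR. With any other library left out it was 0.62 to 0.82 and did not pass, with an adjusted p of at least 0.936 by edgeR.

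YWHAB, the beta protein (ENSG00000166913, chr20:44885676-44908532, plus strand), had 273, 161 and 215 CPM in MOCK 1 to 3 and 152, 157 and 107 CPM in CYGB 1 to 3. MOCK 2 was within a few CPM of CYGB 1 and CYGB 2, and the other MOCK libraries were clearly higher. The means were 216 ± 56.2 and 139 ± 27.7 CPM (SD, n = 3 each). The log2 fold change was −0.64 (SE 0.24, adjusted p = 0.963 by edgeR and 0.655 by DESeq2) and ranged from −0.81 to −0.44 with 1 library left out.

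YWHAE, the epsilon protein (ENSG00000108953, chr17:1344272-1400378, minus strand), had 540, 680 and 728 CPM in MOCK 1 to 3 and 742, 714 and 845 CPM in CYGB 1 to 3. MOCK 1 was the lowest library, MOCK 3 was above CYGB 2, and the log2 fold change was 0.24 (SE 0.13). YWHAZ, the zeta protein and a protein found with many signalling kinases (ENSG00000164924, chr8:100916525-100953388, minus strand), had 2038, 2353 and 2121 CPM in MOCK cells and 2040, 2111 and 1891 CPM in CYGB. The groups overlapped, with a log2 fold change of −0.11 (SE 0.08).

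The other 3 members had the smallest differences of the family. YWHAG, the gamma protein (ENSG00000170027, chr7:76326794-76359031, minus strand), had 523 ± 3.21 CPM in MOCK cells and 533 ± 10.4 CPM in CYGB. YWHAQ, the theta protein (ENSG00000134308, chr2:9583972-9631014, minus strand), had 694 ± 7.57 and 701 ± 23.1 CPM. SFN (ENSG00000175793, chr1:26863138-26864457, plus strand, a gene of 1 exon) had 466 ± 18.2 and 476 ± 64.6 CPM (SD, n = 3 each). Their log2 fold changes lay between 0.02 and 0.03, and the largest adjusted p of the family, 0.993, was that of YWHAQ (edgeR). CYGB 1 was the lowest SFN library with 402 CPM and CYGB 3 the highest with 522 CPM. The median coefficient of variation of the 7 members was 7.5% in MOCK and 5.57% in CYGB, beside 5.88% and 8.57% over the 2100 genes of at least 100 CPM.

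**Figure D1:**
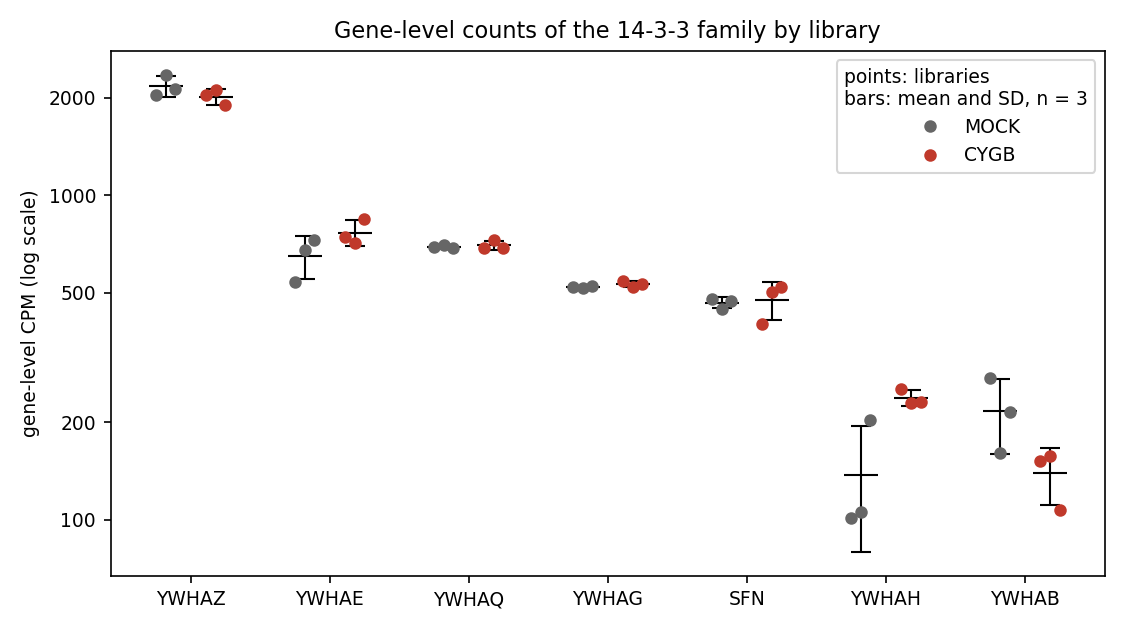
Gene-level CPM (log axis) of the 7 members in the 3 MOCK (grey) and 3 CYGB (red) libraries, with the mean and SD of each group as bars. The groups do not overlap for YWHAH, at 101 to 203 against 229 to 253 CPM, and for YWHAB, at 161 to 273 against 107 to 157 CPM, and they overlap for the other 5 members.

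Among the 54 transcripts 40 could be tested, and 2 of them passed the threshold, YWHAZ-216 and YWHAB-203, both higher in CYGB. Of all 66609 transcripts tested, 1.02% passed (0.540% higher and 0.482% lower). By adjusted p (edgeR) 0 of the 40 passed, against 0.0150% of all transcripts. On simulated counts, where 200 transcripts drawn at random above a low level were changed 8-fold, that rule found 0% of them. The simulation was not matched to the level, spread or fold change of a family transcript. A missing call by that rule therefore does not show that a transcript was unchanged. At an unadjusted p under 0.05 there were 5, against 3.78%. These were YWHAZ-216, YWHAZ-201, YWHAB-203, YWHAB-201 and, named after its values had been seen, YWHAZ-218 with 15, 95 and 16 counts in MOCK 1 to 3 and 14, 5 and 5 counts in CYGB 1 to 3. By the adjusted p of DESeq2 3 passed, YWHAZ-216, YWHAZ-201 and YWHAB-203, against 1.12% of all transcripts, and by its p and ratio at the threshold 2 passed, YWHAZ-216 and YWHAB-203, against 2.26%.

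YWHAZ counts were divided differently among transcripts in the 2 groups. YWHAZ-201 (ENST00000353245, 245 codons, the full-length protein) had 89091, 109363 and 102174 counts in MOCK 1 to 3 and 49317, 53874 and 47492 counts in CYGB 1 to 3. YWHAZ-216 (ENST00000521309, annotated with 125 codons) had 33, 0 and 36 counts in MOCK 1 to 3 and 46726, 46681 and 42489 counts in CYGB 1 to 3. In all CYGB libraries YWHAZ-216 was nearly level with YWHAZ-201, and in all MOCK libraries it was close to nothing or at 0.

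YWHAZ-216 had 0.468 ± 0.406 CPM in MOCK cells and 899 ± 65.7 CPM in CYGB (SD, n = 3 each), a ratio of the means of 1920. Its log2 fold change was 10.90 (SE 1.73), with an unadjusted p of 0.000923, an adjusted p of 0.282 by edgeR and of 1.32e-13 by DESeq2. It passed the threshold under every alternative that was run. Without MOCK 2, the library at 0, the adjusted p by edgeR was 0.0037. YWHAZ-201 had 1992 ± 117 CPM in MOCK cells and 997 ± 83.3 CPM in CYGB, a ratio of 0.5005 and thus just short of the threshold (log2 fold change −0.999, SE 0.08, unadjusted p 2.96e-05, adjusted p 0.0897 by edgeR and 6.08e-08 by DESeq2). It passed the threshold without MOCK 1 (−1.05), without CYGB 2 (−1.06) and with a filter at a mean of 50 counts (adjusted p 0.0678 by edgeR). With 1 library left out the adjusted p of YWHAZ-201 was 0.136 to 0.246 by edgeR.

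The sum of both transcripts was 1862, 2084 and 2032 CPM in MOCK 1 to 3 and 1918, 2026 and 1744 CPM in CYGB 1 to 3. The groups overlapped, with means of 1992 ± 116 and 1896 ± 143 CPM (SD, n = 3 each) and a log2 ratio of −0.07. As a share of the gene's counts, YWHAZ-201 had 92.5, 88.0 and 93.6% in MOCK and 47.9, 50.2 and 47.8% in CYGB, and YWHAZ-216 had 45.3, 43.5 and 42.8% in CYGB. YWHAZ-206, the transcript with the next largest mean share, had 2.08 to 7.64% in the 6 libraries and overlapped between the groups. A test of transcript usage within each gene (edgeR diffSpliceDGE, chosen after the values had been seen) gave YWHAZ an adjusted p of 8.14e-07, where 2.00% of the 11478 genes tested had one under 0.05. By transcript, the same test gave YWHAZ-216 an adjusted p of 3.29e-11, where 0.427% of the 58485 transcripts tested had one under 0.05. YWHAZ-201 and the other tested YWHAZ transcripts were not called by it. YWHAZ stayed called in each of the 10 other settings of that test, with an adjusted p of at most 0.0108 by edgeR.

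The annotated exons of YWHAZ-201 and YWHAZ-216 differ at both ends. YWHAZ-201 has 6 exons and 2829 bases, and its start codon lies in an exon of 305 bases at chr8:100948596-100948900. YWHAZ-216 has 5 exons and 1399 bases, begins with another first exon at chr8:100951929-100952019, lacks the 305-base exon and joins directly to the exon at chr8:100924916-100925039, inside which its shorter reading frame begins. The remaining coding exons are shared. The last exon has 2067 bases in YWHAZ-201 and 924 bases in YWHAZ-216, whose 3′ untranslated part is shorter. The exons of the pair have 1308 bases in common, which is 93.5% of YWHAZ-216 but 46.2% of YWHAZ-201, so that 1521 bases of YWHAZ-201 and the 91 bases of the first exon of YWHAZ-216 are not in the other. The gene has other transcripts as well. Of the 2680 windows of 150 bases (the read length) along YWHAZ-201, 71 were in none of the gene's other transcripts, and of the 1250 windows along YWHAZ-216, 89 were in none. How reads that fit several transcripts were counted is not given in the sources used here, and its part in this result was not tested.

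Transcripts of YWHAZ with the full-length coding sequence held 97.5, 98.1 and 99.2% of the gene's counts in MOCK 1 to 3 and 53.5, 55.3 and 56.3% in CYGB 1 to 3. The difference of the means was −43.2 percentage points, from 98.3 ± 0.866 to 55 ± 1.4% (SD, n = 3 each). An exact two-sided permutation test, chosen after the values had been seen, gave p = 0.1, the smallest it can give, and 0.25 after Benjamini-Hochberg adjustment over the 5 members with more than 1 transcript. Because YWHAZ-216 is shorter, the division also moved the TPM of the gene, from 1505 ± 98.2 in MOCK to 2045 ± 178 in CYGB (SD, n = 3 each), while its CPM overlapped between the groups. The family's summed TPM was 3800, 4071 and 4152 in MOCK and 4749, 5026 and 4603 in CYGB, a log2 difference of 0.26 (p = 0.1, exact permutation test), against 0.00 in CPM.

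**Figure D2:**
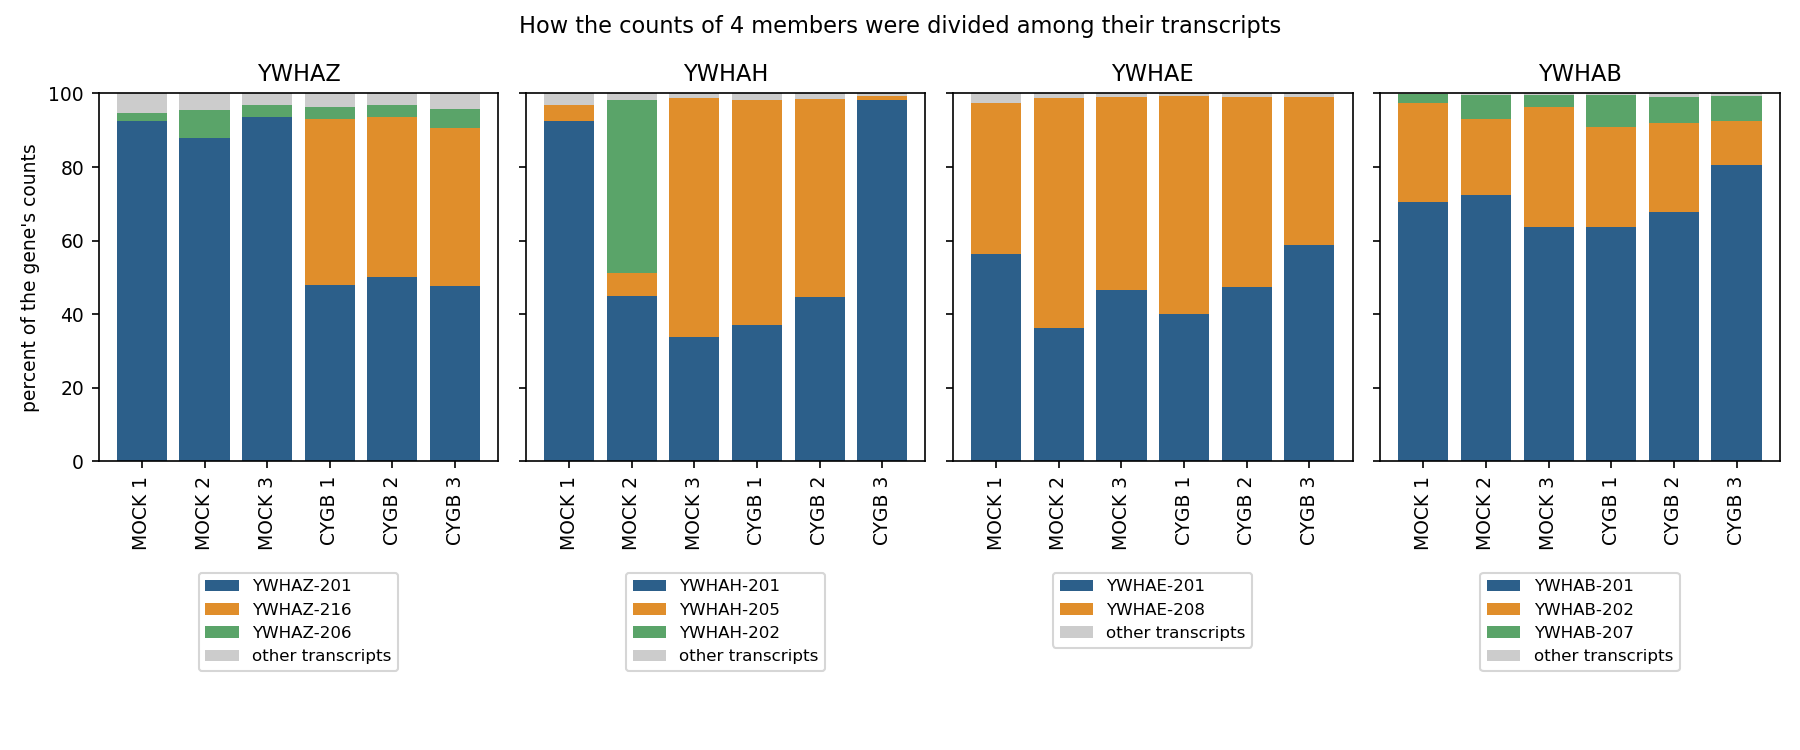
Percent of a gene's counts held by its main transcripts in each library, as stacked bars to 100%, for YWHAZ, YWHAH, YWHAE and YWHAB. YWHAZ-216 holds 42.8 to 45.3% in the 3 CYGB libraries and is not visible in MOCK, whereas the divisions of YWHAH and YWHAE differ between libraries of the same group.

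The division of YWHAH counts among transcripts differed between libraries of the same group. YWHAH-201 (ENST00000248975, 246 codons), the only transcript of the gene with the full-length coding sequence, had 92.3, 48.0 and 70.0 CPM in MOCK 1 to 3 and 94.6, 105 and 230 CPM in CYGB 1 to 3. The groups did not overlap, but MOCK 1 and CYGB 1 were almost equal and CYGB 3 stood far above the rest (log2 fold change 1.03, SE 0.43, adjusted p 1.0 by edgeR, and 0.51 to 1.28 with 1 library left out). YWHAH-205 (ENST00000471374, a processed transcript with no annotated coding region) had 4.37, 6.5 and 135 CPM in MOCK cells and 156, 126 and 2.89 CPM in CYGB. It was high in MOCK 3, CYGB 1 and CYGB 2 and low in the other 3 libraries.

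YWHAH-202 (ENST00000397492, 72 codons, with the additional exon whose junction is shown above) had 50.3 CPM in MOCK 2 and at most 0.504 CPM in the other 5 libraries. Its log2 fold change of −6.01 rested on MOCK 2, without which it was 0.60. In MOCK 2 it held 47.2% of the gene's counts, YWHAH-201 held 45.0% and YWHAH-205 held 6.09%. The usage test of the gene gave an adjusted p of 0.54 (edgeR). Full-length transcripts held 33.7 to 92.4% of YWHAH counts in MOCK and 37.1 to 98.1% in CYGB, so that CYGB 1 and CYGB 3 had gene levels of 253 and 231 CPM but YWHAH-201 levels of 94.6 and 230 CPM. The sum of YWHAH-201, YWHAH-202 and YWHAH-205 was 136 ± 60.5 CPM in MOCK cells and 238 ± 10.5 CPM in CYGB (SD, n = 3 each).

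The first exon of YWHAH lies within the span of C22orf24, which is annotated on the opposite strand and had 4 to 18 counts in each library. It also lies within the span of Z82190.2 (chr22:31754899-31956243), a protein-coding gene on the same strand that was not among the genes counted. Overlap of exons was not checked for either gene. Whether counting used the strand is not given in the sources used here, so reads of YWHAH and C22orf24 cannot be told apart where they overlap. Strand could not separate reads of Z82190.2 from those of YWHAH. Summed over protein-coding transcripts only, an alternative chosen after the data had been seen, the log2 fold change of YWHAH was 0.70.

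Most YWHAE counts were in 2 transcripts, whose shares varied between libraries. YWHAE-201 (ENST00000264335, 255 codons) held 56.3, 36.3 and 46.7% of the gene's counts in MOCK 1 to 3 and 40.0, 47.5 and 58.7% in CYGB 1 to 3, and YWHAE-208 (ENST00000571732, annotated with 233 codons) held 41.0, 62.4 and 52.3% in MOCK and 59.3, 51.6 and 40.4% in CYGB. The larger share was that of YWHAE-201 in MOCK 1 and CYGB 3 and that of YWHAE-208 in the other 4 libraries, and the usage test gave an adjusted p of 1.0 (edgeR). The sum of the pair was 644 ± 113 CPM in MOCK cells and 773 ± 68.7 CPM in CYGB (SD, n = 3 each).

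**Figure D3:**
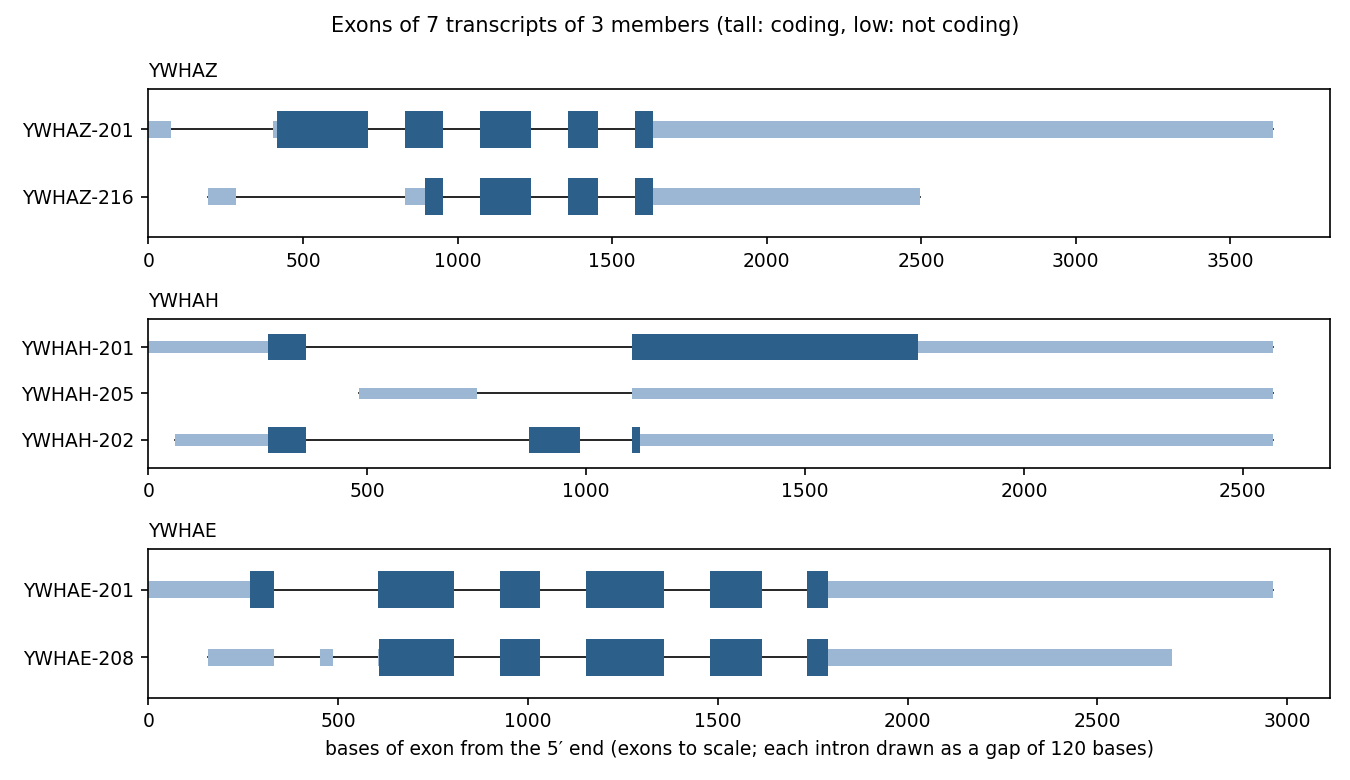
Exons of 7 transcripts of YWHAZ, YWHAH and YWHAE in bases from the 5′ end, drawn to scale with tall boxes for coding parts, low boxes for untranslated or noncoding parts and every intron as a gap of 1 fixed width. YWHAZ-216 lacks the 305-base exon in which the reading frame of YWHAZ-201 begins, YWHAH-205 begins with another first exon than YWHAH-201 and has no coding part, and YWHAE-208 has an extra exon of 33 bases.

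YWHAB counts lay mainly in 2 transcripts that both encode the 246-codon protein. YWHAB-201 (ENST00000353703) had 190, 117 and 140 CPM in MOCK cells and 98.1, 109 and 87.4 CPM in CYGB, without overlap (log2 fold change −0.60, SE 0.21, adjusted p 1.0 by edgeR). YWHAB-202 (ENST00000372839) had 72.9, 33.5 and 71.7 CPM in MOCK cells and 41.7, 38.9 and 13.1 CPM in CYGB, and the groups overlapped. YWHAB-207 (ENST00000631616), a retained-intron transcript, held 2.29 to 6.72% of the gene's counts in MOCK and 6.85 to 8.5% in CYGB.

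YWHAB-203 (ENST00000428262, with an incomplete coding annotation) passed the threshold at a very low level. It had 0 counts in all MOCK libraries and 40, 50 and 14 counts in CYGB 1 to 3, at most 1.01 CPM. Against a floor of 3 counts over the MOCK group it was at least 34.5-fold higher in CYGB. The adjusted p was 0.483 by edgeR and 0.000135 by DESeq2, and the threshold was no longer passed without CYGB 1 or without CYGB 2. The usage test called YWHAB with an adjusted p of 0.00217 (edgeR), but this call was lost in 6 of the 10 other settings, among them those without MOCK 1, without MOCK 2 and without CYGB 1. By transcript, that test called only YWHAB-203 of the gene (adjusted p 0.000547, edgeR diffSpliceDGE), which held at most 0.628% of YWHAB counts. YWHAB-201 and YWHAB-202 were not called by it.

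The remaining members had little to divide. YWHAQ-201 (ENST00000238081) held 95 to 98% of YWHAQ counts, and YWHAQ-202 (ENST00000381844), which encodes the same 245 codons, held 1.24 to 4.38%. YWHAG and SFN have 1 transcript each in the table. YWHAZ-208 (ENST00000418997), among the most variable transcripts of the family, ranged from 5.81 CPM in MOCK 3 to 33.4 CPM in MOCK 1, and the groups overlapped. A highest-to-lowest ratio of at least 10 between libraries, with 0.1 CPM added, was seen for 3 of the 19 family transcripts of at least 5 CPM (15.8%) and for 19.8% of all 17814 such transcripts.

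**Figure D4:**
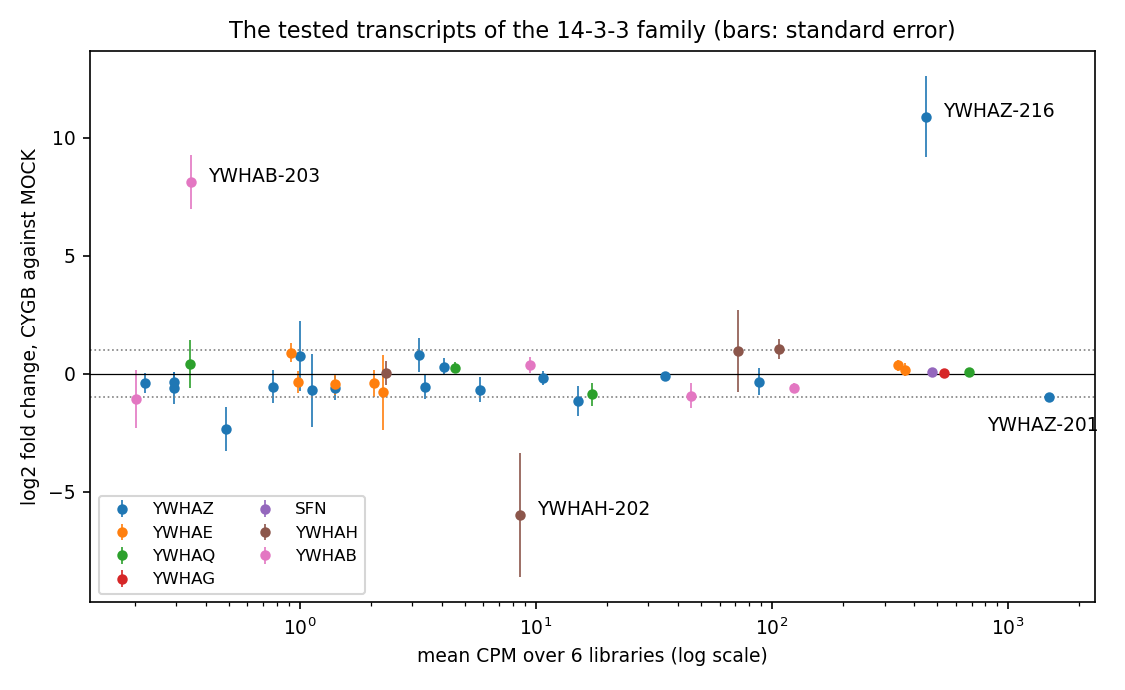
Log2 fold change (CYGB against MOCK, bars for the standard error) of the 40 tested family transcripts against their mean CPM over 6 libraries (log axis), coloured by gene, with dotted lines at a ratio of 2 and 0.5. YWHAZ-216 and YWHAZ-201 lie at 10.90 and −0.999 among abundant transcripts, YWHAB-203 lies at under 1 CPM, and YWHAH-202 rests on 1 library.

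Processed pseudogenes of the family could draw reads from their parent genes. The 13 pseudogenes with a YWHA symbol in the table held 288 to 357 counts in a library in all, at most 0.158% of the family's counts. YWHAZP3 had 151 to 203 counts and YWHAEP1 had 62 to 117 counts in a library, with overlap between the groups for both.

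The partners of the family were followed in 4 lists. The known client proteins were 44 genes, of which 0 passed the threshold, 4 had an unadjusted p under 0.05 and a lower mean in CYGB, and 0 had one and a higher mean. Over all genes 0.565% passed the threshold and 4.54% had an unadjusted p under 0.05 (in either direction). The median log2 fold change of the list was 0.00, beside −0.01 over all genes tested. PI4KB, a lipid kinase of the Golgi, had 35.5 ± 3.04 CPM in MOCK cells and 23.1 ± 3.71 CPM in CYGB (log2 fold change −0.62, SE 0.16), without overlap. WEE1, the kinase that holds back entry into mitosis, had 84.1 ± 24.5 and 50.4 ± 4.84 CPM (−0.74, SE 0.22), also without overlap. On the positive side, RPTOR, a subunit of the mTOR complex, had 124 ± 9.28 and 140 ± 7.82 CPM (0.17, SE 0.09), and PFKFB2, which sets the level of a regulator of glycolysis, had 0.91 (SE 0.51) with 37.1 CPM in CYGB 1 and 8.42 CPM in CYGB 2. The adjusted p of these 4 genes was 0.963 by edgeR. TBC1D1, a regulator of glucose uptake named after its values had been seen, had 119, 30.6 and 95.6 CPM in MOCK 1 to 3 and 43.5, 33.5 and 28.6 CPM in CYGB 1 to 3, with overlap. The largest difference of the list, −3.53 for the kinesin KIF1C, rested on MOCK 3 with 321 CPM, against 9.41 to 12.8 CPM in the other 5 libraries.

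Of the kinases and phosphatases that make or remove 14-3-3 binding sites 28 of 29 were tested (all but PRKD1), 0 passed the threshold (0.565% of all genes) and 1 had an unadjusted p under 0.05 (4.54% of all genes). That gene was PRKD3, a protein kinase D, with 35.6, 18.0 and 41.7 CPM in MOCK cells and 14.5, 15.5 and 14.4 CPM in CYGB (log2 fold change −1.10, SE 0.31, unadjusted p 0.0113, adjusted p 0.963 by edgeR). All CYGB libraries were below all MOCK libraries, and PRKD3 passed the threshold without MOCK 2 (−1.38). AKT1, which phosphorylates BAD and FOXO factors, had 108 ± 6.32 CPM in MOCK cells and 267, 97.1 and 131 CPM in CYGB 1 to 3. PPP1CA, a catalytic subunit of protein phosphatase 1, had 271 ± 8.69 and 304 ± 20.7 CPM, and the kinase PIM1 had 69.3 ± 4.86 and 58.5 ± 10.7 CPM (SD, n = 3 each).

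Among 7 enzymes that modify or degrade 14-3-3 proteins 0 passed the threshold (0.565% of all genes) and 1 had an unadjusted p under 0.05 (4.54% of all genes). It was TRIM25, an E3 ubiquitin ligase that targets SFN for degradation, with 194, 185 and 187 CPM in MOCK cells and 212, 205 and 218 CPM in CYGB. The groups did not overlap, with a log2 fold change of 0.16 (SE 0.06, adjusted p 0.963 by edgeR). COP1, another E3 ligase of SFN, had 25.2 ± 3.6 and 17.8 ± 4.67 CPM (−0.50), the stress kinase MAPK9 had 27.1 ± 2.34 and 35.2 ± 6.21 CPM (0.38), and the casein kinase CSNK1A1 had 202 ± 3.43 and 192 ± 23.0 CPM (−0.07). Their adjusted p was 0.963 or above by edgeR.

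SFN was also set beside 26 other genes known as p53 targets. Of these 0 passed the threshold (0.565% of all genes) and 0 had an unadjusted p under 0.05 in the edgeR test (4.54% of all genes), and their median log2 fold change was −0.02. MDM2, the E3 ligase of p53, had 318 CPM in MOCK 1 and 19.2 to 23.1 CPM in the other 5 libraries, so that its log2 fold change of −2.51 rested on that library. CCNG1, a cyclin, had 147 CPM in CYGB 1 and 24.0 to 45.2 CPM elsewhere, and its log2 fold change of 1.32 was 0.33 without CYGB 1. The kinase PLK3 had 17.0 ± 3.9 and 10.3 ± 4.08 CPM (−0.72), and the RNA-binding ZMAT3 had 18.1 ± 5.18 and 25.4 ± 1.49 CPM (0.49). CDKN1A, the cell cycle inhibitor, passed the threshold without MOCK 2 (1.27) and had 252, 566 and 231 CPM in MOCK cells and 508, 580 and 656 CPM in CYGB. It was named after its values had been seen.

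**Figure D5:**
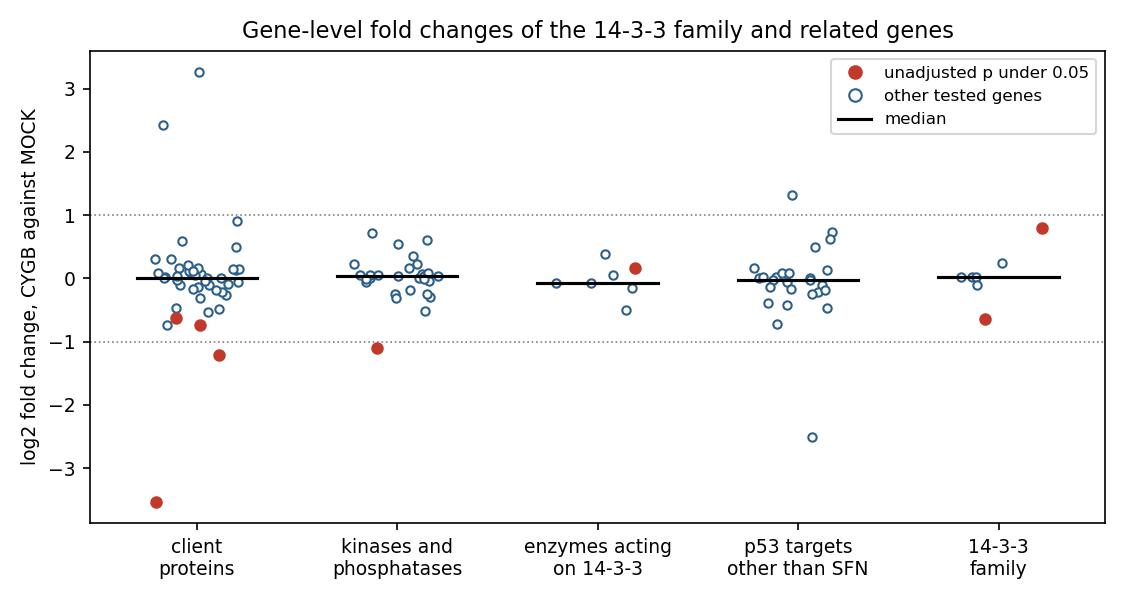
Gene-level log2 fold changes (CYGB against MOCK) of the 14-3-3 family and of the 4 lists of related genes, 1 point a gene, with the median as a bar, dotted lines at a ratio of 2 and 0.5, and red for an unadjusted p under 0.05. The medians lie between −0.07 and 0.04. KIF1C (−3.53), TBC1D1 (−1.21) and PRKD3 (−1.10) are in red beyond the line at 0.5. No gene passes the threshold, which also asks for a p of at most 0.01 (edgeR).

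By Pearson's r of log2 CPM over the 6 libraries, 3 genes of 9940 with at least 10 CPM were most like the family total, NOMO1 (0.999), C16orf72 (0.998) and SMAD9 (0.983). NOMO1 has near-identical copies in the genome, and whether they affected its level of 18.1 to 292 CPM was not tested. The Spearman rho of NOMO1 with the family total was 0.771. The family total itself spanned only 4648 to 4965 CPM, so r compares the shape of the pattern and not its size. For YWHAH, the member with the largest gene-level difference, the 3 genes most alike were DDX54 (0.995), SAMD8 (0.994) and AREL1 (0.99). SAMD8 had 6.37, 8.42 and 43.0 CPM in MOCK cells and 56.7, 54.7 and 47.9 CPM in CYGB, with MOCK 3 near the CYGB libraries as for YWHAH. These values are a description over 6 libraries and come with no test.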

How the data were processed

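RNA-seq libraries of HCT116 cells, 3 MOCK and 3 CYGB, were read as paired ends of 150 bases. The deposited table holds the authors' raw counts for each transcript, not normalized. The submitters' processing notes name HISAT2, HISAT, DESeq2 and hg19, but 99.6% of the 151393 transcripts found in GENCODE 29 have the position given there, so coordinates are those of GRCh38. The counting tool, its use of strand and the division of reads among isoforms are not given in the sources used here. The 21225 transcripts without a gene (18.6 to 19.5% of counts) were left out.

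Counts were tested per transcript (66609) and summed per gene (19987) with edgeR 4.0.16 in R 4.3.3 (filterByExpr, TMM, quasi-likelihood test, Benjamini-Hochberg), with DESeq2 1.42.0 as an alternative. P-values measure the spread between these libraries. The paper describes stable lines obtained by infection and puromycin selection, and does not state whether the libraries of a group came from separate infections. An effect of CYGB and another difference between the MOCK and CYGB lines cannot be told apart. The SE of a log2 fold change is its absolute value divided by the square root of the F of the quasi-likelihood test, not a separate estimate. TPM were computed from the counts and transcript lengths. The remaining values came from Python 3.11.15 with scipy 1.17.1, and figures from matplotlib 3.10.9. On simulated counts with 200 features changed 8-fold, 98% passed the threshold and 93.5% an adjusted p under 0.05 per gene, and 74.4% and 0% per transcript. The biological coefficient of variation was 36.6% per gene and 78.9% per transcript. No library was a copy of another (lowest chi-square per gene 108.3), and each was 1 replicate.

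Named were the 7 members, family transcripts called or most abundant for their gene, the 4 other transcripts of at least 5 CPM that varied most, the 2 genes of smallest p in each direction of each list, the 3 genes most like the family total and YWHAH, and the 2 pseudogenes with the highest counts. Members and lists were chosen with earlier results of these data known. Alternatives were other size factors, DESeq2, other count filters, the transcripts without a gene included, a replicate block and each library left out. Transcript usage, the full-length share and the protein-coding sums were added after the data had been seen.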

Additional observations from a re-analysis of the deposited data

How the results depend on the processing

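Same-numbered MOCK and CYGB libraries did not deviate together (r of 0.029, 0.0052 and 0.031 over 19987 genes), so a replicate block pairs numbers only. With the block the count of members called for transcript usage went from 2 to 1, YWHAB-203 no longer passed the threshold (log2 fold change 8.10) and YWHAZ-201 passed it. The family total was 0.00 (p = 1.0, exact permutation test), and the block changed no other call.

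The number of members past the gene-level threshold was 0 to 1 with 1 library left out (YWHAH without MOCK 3). For family transcripts it was 1 to 4 (main 2), with 4 without MOCK 3, where YWHAQ-202 (−1.25) and YWHAZ-208 (−1.60) were added, and 1 without CYGB 1. The number with an adjusted p under 0.05 was 0 to 1 (YWHAZ-216 without MOCK 2) by edgeR and 3 by DESeq2. Transcript usage called 1 to 3 members (3 without MOCK 3, YWHAE added), and 1 without a count filter and with a mean of at least 50 counts, where YWHAB was lost. List counts, each 0 at first, were 0 to 1 for clients (MDM4 without MOCK 3, TBC1D1 without MOCK 2, PFKFB2 without CYGB 2, KIF13B without CYGB 3), for kinases and phosphatases (PRKD3 without MOCK 2) and for p53 targets (CDKN1A without MOCK 2). PRKD3 was also called by DESeq2 and without a count filter, making that count 1.

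The family total changed sign without MOCK 1 (−0.03) and without CYGB 2 (−0.01), in a range of −0.03 to 0.02. With 1 library left out the sign also changed for YWHAQ (−0.02 without CYGB 2, range −0.02 to 0.03), SFN (−9.7e-05 without MOCK 2, −0.01 without CYGB 2 and −0.04 without CYGB 3, range −0.04 to 0.14), SFN-201 (−0.02 without CYGB 3, range −0.02 to 0.16), YWHAE-208 (−0.07 without MOCK 1, range −0.07 to 0.36) and YWHAH-202 (0.60 without MOCK 2, range −6.91 to 0.60). Beyond the library left out, the cause was not tested.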
